A study of Mus musculus with 16 samples.

Results

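Regulatory T cells (Treg) that carry CD103 at their surface were compared by whether they also carried ICOS. The 4 arrays compared are the 2 arrays of fresh CD103-positive, ICOS-positive Treg (double-positive) and the 2 arrays of fresh CD103-positive, ICOS-negative Treg (CD103 single-positive), taken by their titles from a series of 16 arrays. Every compared cell came from wild type female C57BL/6 mice aged 8 to 12 weeks. Lymph nodes of several sites were pooled, Treg were sorted by flow cytometry, and RNA was taken directly after the sort. The submitters describe 2 independent experiments, and each group has 2 arrays titled biological replicates 1 and 2. How many mice went into a pool is not given in the sources used here. The rest of the series holds the CD103-negative counterparts, which are ICOS-positive (ICOS single-positive) or ICOS-negative (double-negative), and all 4 subsets again after a 3 day culture in a suppression assay. In that culture the Treg were stimulated with anti-CD3 beside congenic naive CD4 cells and irradiated Rag2-/- splenocytes, and then sorted once more, so those arrays (called activated) hold cells that went through a second sort.

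ICOS is a costimulatory receptor of the CD28 family that signals mainly through phosphoinositide 3-kinase (PI3K), and it is found at high levels on effector Treg and on follicular T cells. CD103 is the integrin alpha E chain, encoded by Itgae, which pairs with integrin beta 7 and binds E-cadherin on epithelium. CD103-positive Treg are known as an antigen-experienced population that enters inflamed and barrier tissue, and the comparison asks what ICOS marks within it.

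All values are log2 intensities from the authors' normalized table, 1 value per gene and array, and a difference of 1 on this scale is a 2-fold difference. Array medians lay between 6.26 and 6.48. A signal near or below these medians includes background, so a fold against such a level can understate the difference. Levels of different genes come from different probes and were not set against each other. Differences were tested with limma on all 16 arrays, and the threshold for passing was a p of 0.05 after Benjamini-Hochberg adjustment over 19938 genes. The p-values measure the spread between arrays of 1 group, pooled over 8 groups. Replicate arrays differed by more than 2-fold at 81 genes in double-positive and 148 genes in CD103 single-positive cells. On the activated ICOS single-positive arrays they did so at 685 genes, against at most 413 in any other group. This wide pair is in neither compared group, but its spread enters the error of each gene in every comparison, so calls are also given with 1 of its arrays left out. Leaving out either one takes the spread of the pair out of the fit and gave the same counts, so the counts do not say which of the 2 is unusual.

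The sort genes lay on the side that the titles give. Icos had log2 levels of 13.16 and 13.31 in double-positive cells, against 11.21 and 11.47 in CD103 single-positive cells, a log2 difference of 1.89 ± 0.37 (SE, limma, n = 2 and 2, adjusted p = 0.0239). The lower pair was still far above the array medians, so ICOS-negative by surface stain was not absence of Icos RNA. Itgae stood at 12.33 and 12.37 in double-positive and at 11.77 and 11.89 in CD103 single-positive cells (adjusted p = 0.958). Foxp3, the transcription factor that defines Treg, read 12.84 and 12.50 in double-positive and 12.62 and 12.43 in CD103 single-positive cells (adjusted p = 0.996), and Il2ra differed by -0.05. Cd4 read 12.10 and 11.95 in double-positive and 11.90 and 11.68 in CD103 single-positive cells. These levels fit the labelled cell type in both groups.

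Markers of other cells were read from 7 lists. Of 11 B cell markers, Blk rose and Bank1 fell, while Ms4a1, the CD20 gene, lay at 5.06 and 5.29 in double-positive and at 5.87 and 4.53 in CD103 single-positive cells, below the array medians. Of 20 myeloid and dendritic markers, Lyz1 alone rose, with 8.11 and 8.26 against 7.20 and 6.30, and 0 fell. The summed linear intensity of the myeloid list was 6986 and 5948 in double-positive cells, against 6657 and 3334 in CD103 single-positive cells. Its major histocompatibility class II members moved with 1 array: H2-Aa read 8.28 and 7.80 in double-positive cells, against 9.23 on replicate 1 and 6.89 on replicate 2 in CD103 single-positive cells. Without CD103 single-positive replicate 1, 159 genes were higher and 54 lower over all genes, 2 B cell markers rose, and Bank1 (-1.29 with all arrays) differed by -0.76 and did not pass. The part of these cells in the results was not tested. Of 10 markers of CD8 T and NK cells Cd8a fell, with 6.35 and 6.56 in double-positive and 7.78 and 8.05 in CD103 single-positive cells (-1.47, limma, adjusted p = 0.000189). Cd8a read 6.22 and 6.10 in fresh ICOS single-positive and 6.27 and 6.14 in fresh double-negative cells, so the CD103 single-positive arrays stood apart. In this list 8 of the 10 had a negative difference, with a median of -0.15. A part of CD8 T cells in this difference was not tested. Of 11 stromal and endothelial markers Pecam1 fell, and none of 10 activated conventional CD4, 10 mast cell, basophil and innate lymphoid or 5 erythroid and platelet markers passed.

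Within CD103-positive Treg, 315 genes were higher in double-positive cells, 1.58% of the genes tested, and 120 were lower, 0.602%. Together 435 genes passed, 2.18% of 19938, and 2081 had an unadjusted p below 0.05. At least 2-fold differences were found for 229 of the higher and 75 of the lower genes. The median difference over all genes was -0.04 and 38.2% of genes had a positive difference, so the bulk of genes lay close to 0 and the large differences ran mostly upward. All 435 genes kept 1 sign whether read from the replicate 1 pair or from the replicate 2 pair. They were chosen by a test that uses these same arrays, so the equal sign adds no separate evidence. The arrays of both groups did not overlap at 7183 genes, 36% of those tested, so separation of 2 against 2 arrays is common here and is no call by itself.

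The number of calls rests on few arrays. Leaving out 1 of the 4 compared arrays left 176 to 213 genes, the fewest without double-positive replicate 2, and 133 of the 435 genes passed in all 4 such fits. The array left alone in its group is then assumed to vary like those of the other groups. Of the 82 named genes that passed, 34 passed in all 4 of these fits and 34 in none of them, and the text says which for the genes it turns on. Without 1 array of the wide pair, 704 genes passed (499 higher and 205 lower), 434 of the 435 among them. In bulk RNA of a sorted population, a higher level may come from more cells that make the transcript or from more transcript per cell, and these cannot be told apart.

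**Figure D1:**
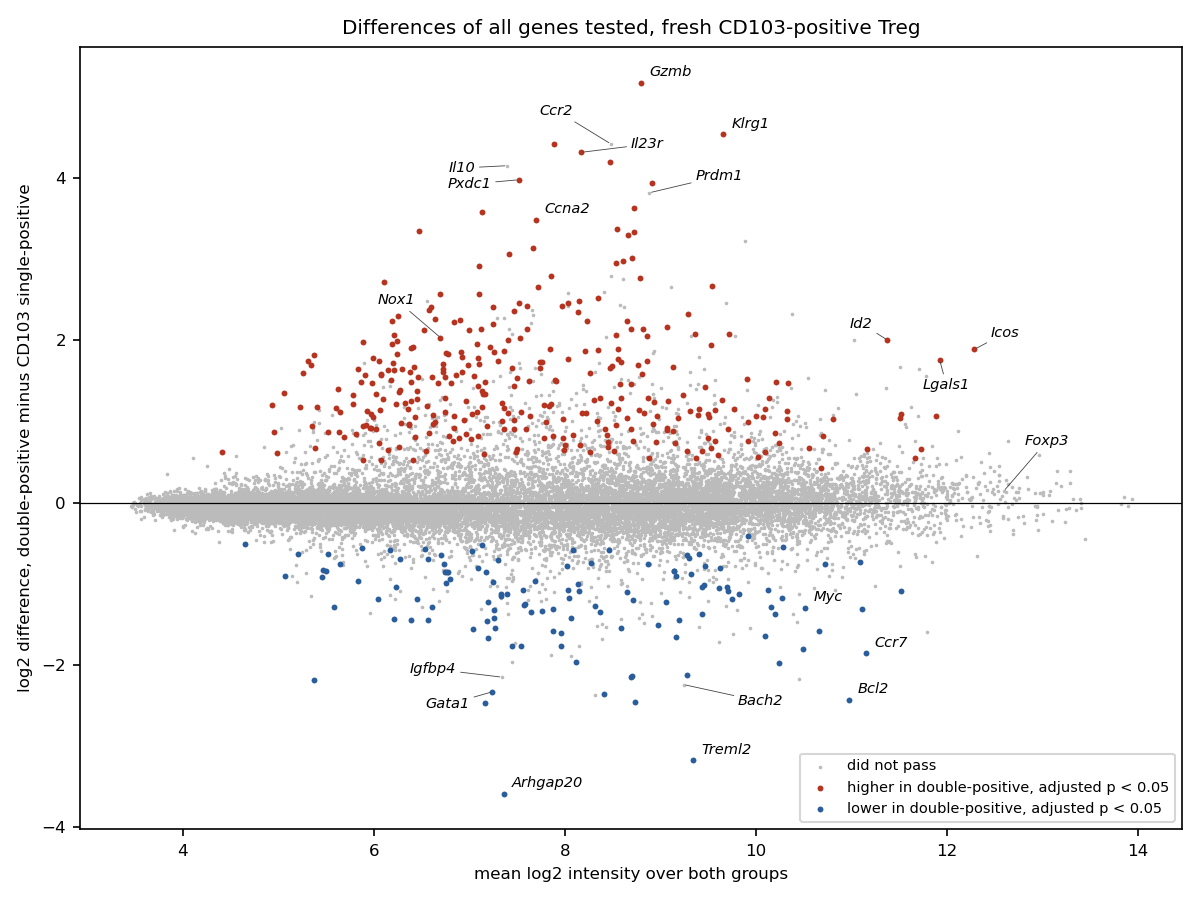
Log2 difference (double-positive minus CD103 single-positive, y axis) against the mean log2 intensity of both groups (x axis) for 19938 genes, each point a gene; red points are the 315 genes that passed as higher, blue points the 120 that passed as lower, and grey points did not pass. Gzmb lies highest at 5.18 and Arhgap20 lowest at -3.59, while Ccr2, Il10, Prdm1, Bach2 and Igfbp4 show differences above 2 log2 units in size and did not pass.

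Among the genes that passed, Gzmb had the largest difference. Gzmb, encoding the cytolytic protease granzyme B, had log2 levels of 11.29 and 11.48 in double-positive cells, against 6.22 and 6.20 in CD103 single-positive cells. Its difference of 5.18 ± 1.05 (SE) is a 36.2-fold higher signal (limma, adjusted p = 0.0299). Both CD103 single-positive values lay below the array medians. For Klrg1, an inhibitory lectin receptor that binds cadherins, the double-positive arrays read 11.83 and 12.03 and the CD103 single-positive arrays 7.45 and 7.33, a difference of 4.54 ± 1.02 (adjusted p = 0.0465). Havcr2, which encodes the coinhibitory receptor Tim-3, stood at 10.21 and 9.97 in double-positive and at 5.98 and 5.37 in CD103 single-positive cells, 4.42 ± 0.81 apart (adjusted p = 0.0169). At each of these genes both double-positive arrays lay far above both CD103 single-positive arrays, by many times the distance between replicates.

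A second set of large differences was in receptors and calcium-binding proteins. The IL-23 receptor chain gene Il23r read 10.39 and 10.26 in double-positive cells, against 6.45 and 5.56 in CD103 single-positive cells (difference 4.32 ± 0.69, adjusted p = 0.00763). Cxcr6, the receptor for the chemokine CXCL16, read 10.64 and 11.13 against 7.17 and 6.72 in CD103 single-positive cells (3.94 ± 0.68, adjusted p = 0.0123). S100a6, a small calcium-binding protein gene, read 10.53 and 10.60 against 6.45 and 6.30 in CD103 single-positive cells (4.19 ± 0.77, adjusted p = 0.0179). Double-positive arrays were high and CD103 single-positive arrays low at all 3 genes, with no overlap. Pxdc1 (3.98, adjusted p = 0.00191), S100a4 (3.37, adjusted p = 0.0103) and the gene annotated as the odorant receptor Olfr60 (3.35, adjusted p = 0.0104) completed the 12 largest among the genes that passed and could be named, with Gcnt1, Ccr3 and Ccna2 described below.

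These large differences were not equally secure. Gcnt1, Ccna2 and Pxdc1 passed without any 1 of the 4 compared arrays. Gzmb, Klrg1, Havcr2, S100a6, S100a4, Cxcr6 and Olfr60 passed in 0 of those 4 fits, and Il23r and Ccr3 in 1. Over the alternatives some of these differences hardly moved (Gzmb 5.09 to 5.27 and Klrg1 4.44 to 4.64). Others moved more (Il23r 3.87 to 4.76 and Havcr2 4.11 to 4.73). Of 26 alternatives Gzmb passed in 17 and Klrg1 in 11. Without 1 array of the wide pair the adjusted p was 0.0194 for Gzmb and 1.37e-06 for Klrg1.

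**Figure D2:**
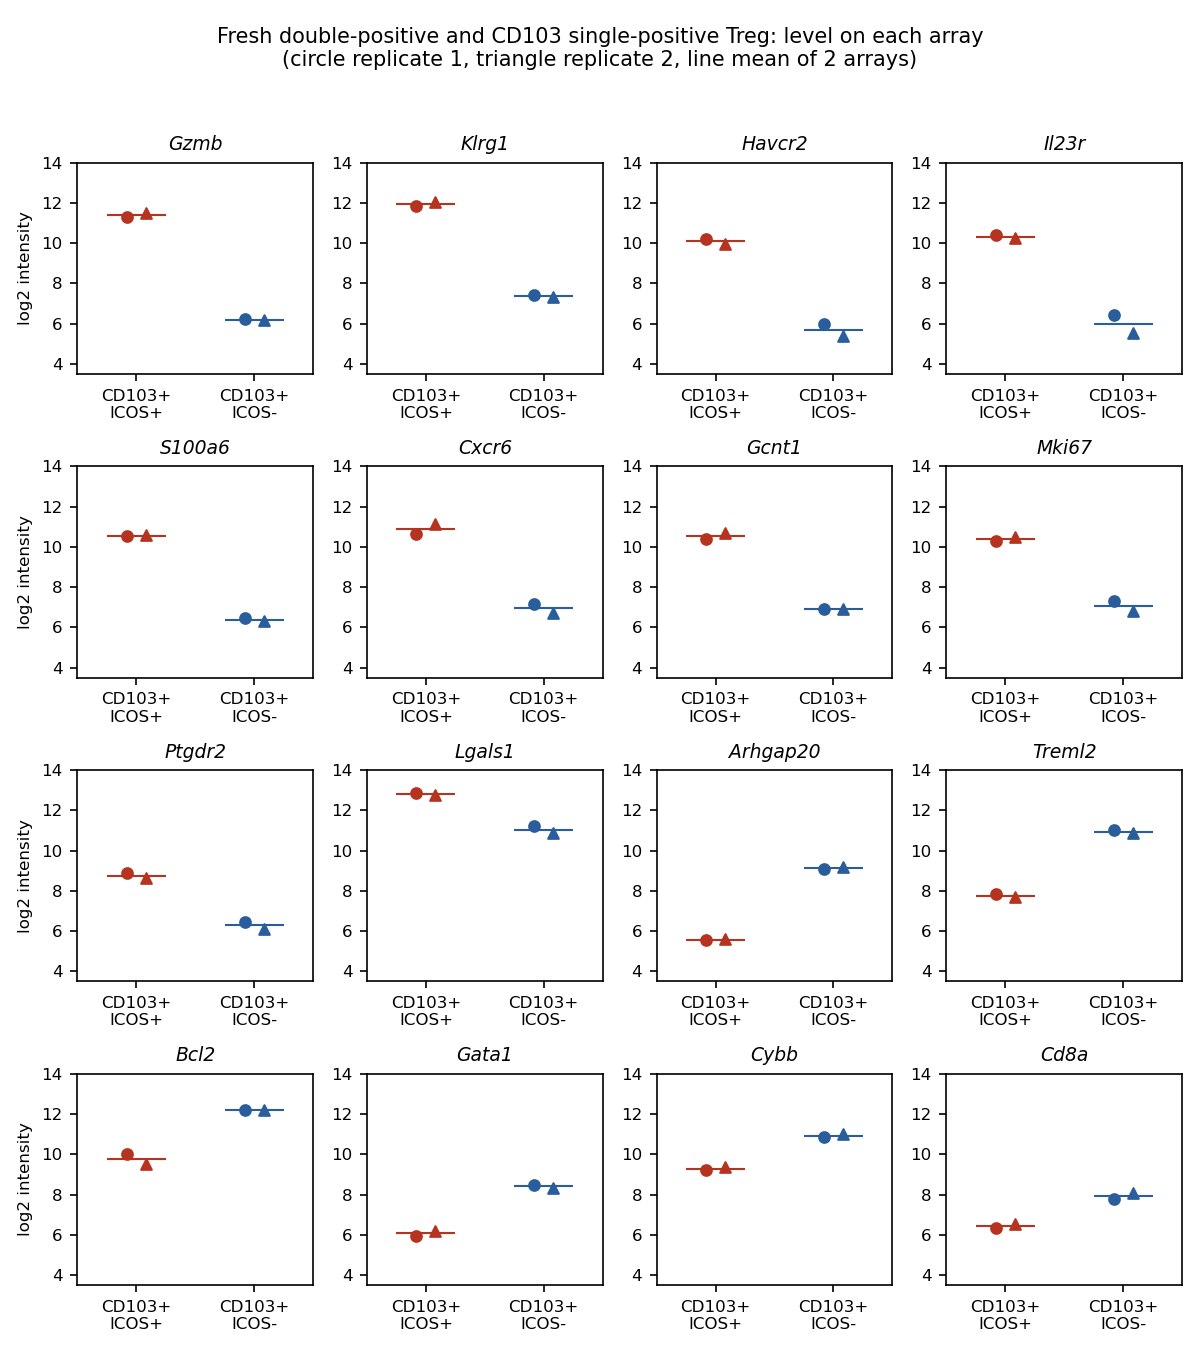
Log2 intensity (y axis, same scale in every panel) of 16 named genes on the 2 double-positive arrays (CD103+ ICOS+, red, left) and the 2 CD103 single-positive arrays (CD103+ ICOS-, blue, right); circles are replicate 1, triangles replicate 2 and lines the mean of 2 arrays. In every panel the groups do not overlap: the double-positive arrays are higher for Gzmb (11.29 and 11.48 against 6.22 and 6.20) through Lgals1, and lower for Arhgap20 (5.53 and 5.60 against 9.10 and 9.21) through Cd8a.

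Genes of mitosis formed the most complete group among the lists. Of 34 measured members 25 rose and 0 fell, 34 had a positive difference, and the median difference was 1.65, against -0.04 for all genes. The median was 1.45 in the replicate 1 arrays and 1.86 in the replicate 2 arrays. Counts of passing members were 21 to 24 with 1 compared array left out, and 25 without 1 array of the wide pair. Mki67, encoding the proliferation antigen Ki-67, had 10.28 and 10.51 in double-positive cells, against 7.29 and 6.81 in CD103 single-positive cells, a difference of 3.34 ± 0.21 (adjusted p = 2.55e-05). Cyclin A2, encoded by Ccna2, read 9.36 and 9.52 in double-positive and 6.17 and 5.74 in CD103 single-positive cells (3.49 ± 0.17, adjusted p = 6.86e-06), and cyclin B2, Ccnb2, 10.11 and 10.08 against 7.35 and 6.88 (2.98, adjusted p = 9.4e-06). At all 3 genes the double-positive arrays lay far above the CD103 single-positive arrays, with no overlap.

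The same direction held from entry into mitosis to its end. Cdk1, the kinase that drives entry, read 8.24 and 8.44 in double-positive and 6.05 and 6.24 in CD103 single-positive cells (2.20). Spindle motors rose, with Kif11 at 2.91, Kif15 at 1.91 and Kif23 at 1.86, and so did the checkpoint kinase gene Bub1 at 2.72 and the condensin subunits Ncapg at 2.30 and Ncaph at 1.87. Top2a, the topoisomerase that untangles sister chromatids, rose by 2.42 (1.26 with its probe sets averaged), the kinetochore scaffold gene Knl1 by 2.37, the mitotic kinase genes Aurkb by 1.73 and Plk1 by 1.66, and Ube2c, which serves the anaphase-promoting complex, by 1.90. The 9 members that did not pass had differences of 1.0 for Kif4, 0.77 for Ttk, 0.61 for Aurka, 0.59 for Cdc20 and for Cenpa, 0.53 for Melk, 0.44 for Ndc80, 0.42 for Kif20b and 0.38 for Cdc25c.

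DNA replication genes lay higher too, by less. All 31 measured members had a positive difference, the median was 0.60, and 6 passed as higher and 0 as lower, with 3 to 4 passing when 1 compared array was left out. Ribonucleotide reductase supplies deoxynucleotides, and its subunit genes Rrm2 (9.03 and 9.49 in double-positive, 6.81 and 6.80 in CD103 single-positive cells, difference 2.46) and Rrm1 (1.08) both rose. Ccne2, a cyclin of the entry into S phase, rose by 2.06, and Uhrf1, which couples DNA methylation to replication, by 1.67. The helicase subunit gene Mcm5 read 10.02 and 9.61 in double-positive and 9.45 and 9.15 in CD103 single-positive cells (0.52, adjusted p = 0.565), and Pcna differed by 0.41 without passing. Among 14 cell cycle brakes, Cdkn2c, which encodes the cyclin D kinase inhibitor p18, rose by 2.24 (9.23 and 9.48 against 6.85 and 7.39), and the retinoblastoma relative Rbl2 rose by 1.03. Cdkn1b, the p27 gene, differed by -0.08 (adjusted p = 0.964).

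Because the mitosis genes moved together, their promoters were read for letters known from the promoters of late cell cycle genes. These are the cell cycle homology region (here TTTGAA), which the DREAM complex is known to use, and the CCAAT box. RefSeq promoter windows of GRCm38.p6, 250 bases before to 50 bases after the start site, were matched for 29 of the 34 mitosis genes (30 windows). TTTGAA on either strand was in 23 of them, 76.7%, against 12.5% of the 32 windows of DNA replication genes and 14.8% of 19177 windows of all genes tested. CCAAT on either strand was in 73.3%, 56.2% and 37.4% of the same windows, and both were in 66.7%, 9.38% and 5.85%. TTTGAA was in 72.7% of the windows of mitosis genes that passed and in 87.5% of those that did not, so it did not mark the passing members within the list. A match is a description of letters, not a site shown to be bound.

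Of 21 matched mitosis genes that rose, 15 held TTTGAA, while Bub1 (2.72), Nusap1 (2.14), Ncaph, Cenpe, Nuf2 and Birc5 rose without it. Shown are windows of 4 mitosis genes that rose and hold both motifs and, as a contrast without TTTGAA, that of the DNA replication gene Rrm2. Each is written 5′ to 3′ on the gene's strand, and capitals mark TTTGAA or its reverse complement TTCAAA, and CCAAT or its reverse complement ATTGG, which share no letters here. They lie at chr7:135716330-135716629 (minus strand) for Mki67, chr9:70421505-70421804 (minus) for Ccnb2, chr19:37376132-37376431 (plus) for Kif11, chr10:69352863-69353162 (minus) for Cdk1 and chr12:24708004-24708303 (plus) for Rrm2.
Mki67: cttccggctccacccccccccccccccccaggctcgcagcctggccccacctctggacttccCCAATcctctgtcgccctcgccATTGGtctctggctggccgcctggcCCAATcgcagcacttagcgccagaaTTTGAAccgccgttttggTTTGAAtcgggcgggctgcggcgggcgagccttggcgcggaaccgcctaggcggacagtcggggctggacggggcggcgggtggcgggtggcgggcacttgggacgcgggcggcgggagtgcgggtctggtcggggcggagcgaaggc
Ccnb2: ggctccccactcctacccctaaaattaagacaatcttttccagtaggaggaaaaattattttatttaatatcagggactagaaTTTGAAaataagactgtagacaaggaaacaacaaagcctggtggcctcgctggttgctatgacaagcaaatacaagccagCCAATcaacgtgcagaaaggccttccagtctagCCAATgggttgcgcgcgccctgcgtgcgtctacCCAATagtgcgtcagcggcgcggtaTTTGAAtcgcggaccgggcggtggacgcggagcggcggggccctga
Kif11: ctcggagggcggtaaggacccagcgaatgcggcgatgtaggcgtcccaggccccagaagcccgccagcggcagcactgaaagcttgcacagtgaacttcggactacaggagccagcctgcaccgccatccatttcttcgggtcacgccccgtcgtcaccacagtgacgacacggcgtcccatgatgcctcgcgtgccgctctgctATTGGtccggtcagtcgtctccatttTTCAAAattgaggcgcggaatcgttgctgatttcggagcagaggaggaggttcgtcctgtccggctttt
Cdk1: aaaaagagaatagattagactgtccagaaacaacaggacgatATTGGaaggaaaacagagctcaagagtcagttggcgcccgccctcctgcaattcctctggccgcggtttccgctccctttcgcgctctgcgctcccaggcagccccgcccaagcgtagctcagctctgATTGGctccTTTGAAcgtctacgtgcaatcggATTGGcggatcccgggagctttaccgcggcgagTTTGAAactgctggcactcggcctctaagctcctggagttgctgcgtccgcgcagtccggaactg
Rrm2: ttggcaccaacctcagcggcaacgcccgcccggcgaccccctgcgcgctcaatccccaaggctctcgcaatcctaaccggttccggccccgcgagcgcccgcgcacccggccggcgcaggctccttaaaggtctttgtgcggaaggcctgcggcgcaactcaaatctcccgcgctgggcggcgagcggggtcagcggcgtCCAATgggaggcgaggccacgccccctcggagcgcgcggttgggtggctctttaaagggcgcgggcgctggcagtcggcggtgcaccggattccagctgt
In the Mki67 and Cdk1 windows 2 TTTGAA matches and 3 CCAAT matches were found, as in that of Ccnb2, and the Kif11 window holds 1 of each. Log2 differences of these genes were 3.34 for Mki67, 2.98 for Ccnb2, 2.91 for Kif11 and 2.20 for Cdk1, and that of Rrm2, with 1 CCAAT match and no TTTGAA, was 2.46.

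Genes of naive and central T cells moved the other way. Of 18 measured members 0 rose and 5 fell, 17 had a negative difference, and the median was -1.56, or -1.47 and -1.60 in the replicate 1 and replicate 2 arrays. Without 1 array of the wide pair 9 fell, and 1 to 2 with 1 compared array left out. Treml2, a receptor of the TREM family, had 7.83 and 7.69 in double-positive cells, against 11.002 and 10.86 in CD103 single-positive cells (-3.17 ± 0.42, adjusted p = 0.00243). Bcl2, the survival gene, had 10.01 and 9.51 in double-positive and 12.18 and 12.20 in CD103 single-positive cells (-2.43 ± 0.44, adjusted p = 0.0169). Ccr7, the receptor that guides T cells into lymph node T zones, read 10.55 and 9.92 against 12.18 and 11.99 in CD103 single-positive cells (-1.85 ± 0.39, adjusted p = 0.0351). The groups were apart at all 3, with the double-positive arrays low. Of these, Treml2 passed without any 1 compared array, and Bcl2 and Ccr7 in 0 of those 4 fits.

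The sialyltransferase genes St8sia1, which makes the ganglioside GD3, and St8sia6 fell by 2.46 and 2.13. Bach2, a repressor that restrains effector differentiation, read 8.39 and 7.86 in double-positive and 10.55 and 10.18 in CD103 single-positive cells; its difference of -2.25 had an adjusted p of 0.0513, and of 0.0089 without 1 array of the wide pair. Igfbp4 (-2.15, adjusted p = 0.288), Dapl1 (-1.97), Id3 (-1.50, adjusted p = 0.0856), Satb1 (-0.84) and Lef1 (-0.80) were also lower in value and did not pass, and Klf2, a target of Foxo1 that controls recirculation, differed by -0.55 (adjusted p = 0.885). Il7r was the exception in sign, with a difference of 0.89 that did not pass. Among 18 survival and death genes Bcl2 alone passed, while its relatives Bcl2l1 (0.67), Mcl1 (-0.29) and Bcl2l11 (-0.09) did not.

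Several genes that fell most were members of none of the lists. Arhgap20, which encodes a GTPase-activating protein, fell the furthest, with 5.53 and 5.60 in double-positive cells, against 9.10 and 9.21 in CD103 single-positive cells (-3.59 ± 0.38, adjusted p = 0.000564). Gata1, best known as an erythroid transcription factor, read 5.96 and 6.18 against 8.49 and 8.33 in CD103 single-positive cells (-2.33, adjusted p = 0.00269), while the 5 erythroid and platelet markers had a median difference of -0.04. In both genes the double-positive values lay below the array medians and both CD103 single-positive values above. The glutathione transferase gene Gsta4 (-2.48), the retinol transporter gene Stra6 (-2.36), Khdc1a (-2.18), the peptidoglycan sensor gene Nod1 (-2.14), Ssbp2 (-1.97) and the adhesion receptor gene Adgrg1 (-1.96) followed. Evl, an actin regulator, fell by 1.58, the Notch regulator Dtx4 by 1.59 and the cyclase subunit gene Gucy1a1 by 1.77. Arhgap20, Gata1, Gsta4, Khdc1a, Nod1, Dtx4 and Gucy1a1 passed without any 1 compared array; Stra6, Ssbp2 and Evl passed in 0 of those fits.

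Among 19 chemokine and homing receptors 6 rose and 1 fell, with a median difference of 1.24; without 1 array of the wide pair 9 rose, and 2 to 3 with 1 compared array left out. Beside Cxcr6, the eotaxin receptor gene Ccr3 rose, with 8.64 and 9.20 in double-positive and 5.33 and 5.36 in CD103 single-positive cells (3.58 ± 0.59, adjusted p = 0.00939). Ptgdr2, which encodes the prostaglandin D2 receptor CRTH2, read 8.87 and 8.62 against 6.45 and 6.13 in CD103 single-positive cells (2.46 ± 0.23, adjusted p = 0.000306), and it passed without any 1 compared array. Ccr8, Ccr10 and the lipid receptor gene Gpr55 rose by 1.49, 1.56 and 1.68. The follicle-homing receptor gene Cxcr5 fell by 1.27, with 7.80 and 7.55 in double-positive and 9.01 and 8.88 in CD103 single-positive cells.

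Ccr2, the receptor for inflammatory monocyte chemoattractants, had a difference as large as that of Havcr2 and did not pass. It read 10.31 and 11.08 in double-positive cells, against 6.28 and 6.26 in CD103 single-positive cells, 4.42 ± 1.08 apart (adjusted p = 0.0671). Without 1 array of the wide pair the adjusted p was 0.0051. Cxcr3 (0.85), Ccr4 (1.67), Gpr15 (1.43) and Ccr6 (1.24) did not pass, and Ccr9, the small intestine homing receptor, differed by -0.14.

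Integrin and adhesion genes gave 5 higher and 1 lower of 22, with a median difference of 0.64, and 2 to 3 higher with 1 compared array left out. Gcnt1, the enzyme that branches O-glycans of selectin ligands, read 10.40 and 10.69 in double-positive cells, against 6.89 and 6.92 in CD103 single-positive cells (3.64 ± 0.44, adjusted p = 0.00134). The collagen-binding chain gene Itga2 read 9.42 and 9.81 against 7.08 and 7.09 in CD103 single-positive cells (2.53, adjusted p = 0.0198), and Itga1, Itgb3 and the syndecan gene Sdc1 rose by 0.61, 1.23 and 1.49. Itga4, the chain of the homing integrins that bind VCAM-1 and MAdCAM-1, fell by 1.09. Itgb7, the partner chain of CD103, differed by 0.55 without passing. Itga1 and Itga2, which both bind collagen, thus lay on the higher side, Itga1 near the median of the list, and Itga4 on the lower.

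Suppressive mediators gave 3 higher and 0 lower of 12, with a median of 0.58, and 5 higher without 1 array of the wide pair. Lgals1, encoding galectin-1, read 12.85 and 12.76 in double-positive cells, against 11.22 and 10.88 in CD103 single-positive cells (1.76 ± 0.15, adjusted p = 0.000189), and it passed without any 1 compared array. Lgals3 rose by 2.35 and Fgl2, a secreted fibrinogen-like suppressor, by 2.33. Il10 had 9.82 and 9.12 in double-positive cells, against 5.68 and 4.95 in CD103 single-positive cells, and its difference of 4.15 ± 1.20 had an adjusted p of 0.141, or 0.0035 without 1 array of the wide pair. Groups of Il10 values were more than 3 log2 units apart, with the CD103 single-positive values below the array medians. Ebi3 (0.76), Entpd1 (0.40), Tgfb1 (0.23) and Nt5e (0.12) did not pass. Of 13 cytolytic granule genes Gzmb rose, the granule membrane gene Lamp1 fell by 0.75, and Prf1, the perforin gene, stood at 7.32 and 7.23 in double-positive and 7.24 and 7.14 in CD103 single-positive cells without passing. Gzma differed by 0.09 and Gzmc by 1.16, neither passing, and without 1 array of the wide pair 2 of the list fell.

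Effector transcription factors were higher in value at 17 of 18 members, with a median of 0.77, but only 2 passed, and 5 without 1 array of the wide pair. Id2, an inhibitor of E proteins, read 12.39 and 12.37 in double-positive and 10.47 and 10.28 in CD103 single-positive cells (2.0, adjusted p = 0.0132), and Rora, an orphan nuclear receptor, 10.53 and 10.47 against 8.48 and 8.62 (1.95, adjusted p = 0.0469). Both passed in 0 of the 4 fits without 1 compared array. Prdm1, the gene of Blimp-1, which governs effector Treg, had 10.70 and 10.89 in double-positive and 7.01 and 6.94 in CD103 single-positive cells, 3.82 ± 1.0 apart (adjusted p = 0.0896, and 0.0056 without 1 array of the wide pair). Maf (1.56), Ahr (1.46, adjusted p = 0.0644), Batf (0.84), Gata3 (0.73), Tbx21 (0.65) and Irf4 (0.58) did not pass, and Bhlhe40 was the member with a negative difference, -0.77.

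Coinhibitory receptors gave 3 higher, Klrg1, Havcr2 and Lag3, and 1 lower, Cd200, of 16. Lag3, a receptor for class II molecules, read 9.75 and 9.66 in double-positive and 8.54 and 8.36 in CD103 single-positive cells (1.25, adjusted p = 0.027). Cd200 read 8.05 and 8.17 against 9.19 and 9.45 in CD103 single-positive cells (-1.21). Tigit (2.0, adjusted p = 0.125, and 0.012 without 1 array of the wide pair), Ctla4 (0.50) and Pdcd1 (0.42) did not pass. With 1 compared array left out, 0 members passed as higher, and without 1 array of the wide pair 5 were higher and 2 lower. In the killer lectin-like receptor family, Klrg1 and Klrb1f (2.07) rose of 11 members. Of the 11, 9 had means below 6.61, the median over all genes and arrays, in both groups. Of 14 costimulatory and TNF family genes Tnfsf8, the CD30 ligand gene, fell by 1.77, and none rose. Tnfsf8 passed in 0 of the 4 fits without 1 compared array, and without 1 array of the wide pair 2 members rose.

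Cytokine receptors gave 4 higher and 0 lower of 21. Beside Il23r these were Il9r (10.67 and 10.14 in double-positive, 8.46 and 8.19 in CD103 single-positive cells, 2.08), Il17re (2.01), which binds IL-17C, and Il18rap (1.77), the second chain of the IL-18 receptor. Il18r1, its partner, differed by 2.06 and the decoy receptor gene Il1r2 by 2.44 (adjusted p = 0.355), and neither passed. The list's median was 0.04, so the large differences were in few members; with 1 compared array left out, 0 to 1 passed, and 6 without 1 array of the wide pair. Of 18 cytokine genes none passed in either direction, among them Il17a (0.03), Ifng (0.13) and Il21 (0.28), and of 13 chemokine ligands none did.

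S100, annexin and cytoskeletal linker genes gave 5 higher and 0 lower of 20, with a median of 0.82, and 9 higher without 1 array of the wide pair. Anxa2 and Anxa1, membrane-binding annexins, rose by 1.78 (9.27 and 9.63 against 7.67 and 7.67 in CD103 single-positive cells) and 1.74, and both passed without any 1 compared array. Lmna, the nuclear lamin A gene, rose by 0.92, and Vim (0.59), Ahnak (0.79) and S100a10 (0.76) did not pass. Among 19 genes of extracellular matrix and secreted proteins, Abi3bp and Lgals1 rose and Ecm1 fell; without 1 array of the wide pair 6 rose and 2 fell. Abi3bp, a matrix protein gene, read 7.60 and 7.02 in double-positive and 5.26 and 4.86 in CD103 single-positive cells (2.24 ± 0.20, adjusted p = 0.000216). Mmp9 (2.79), Adam8 (2.60) and Penk (1.54) were higher in value without passing.

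The NADPH oxidase genes were split by subunit. Nox1, a catalytic subunit, read 7.61 and 7.82 in double-positive and 5.64 and 5.71 in CD103 single-positive cells (2.04 ± 0.11, adjusted p = 9.4e-06). Cybb, the catalytic subunit of phagocytes, read 9.20 and 9.36 against 10.84 and 11.001 in CD103 single-positive cells (-1.64 ± 0.24, adjusted p = 0.00449). Noxa1, an activator of Nox1, fell by 1.23, with 6.47 and 6.70 against 7.70 and 7.93 in CD103 single-positive cells, and the organizer gene Ncf1 differed by -1.88 without passing. So both catalytic genes changed, in opposite directions, with no overlap between groups. Of 18 prostaglandin genes Ptgdr2 rose and Ptger2, a prostaglandin E2 receptor, fell by 1.34 (7.14 and 7.04 against 8.40 and 8.46 in CD103 single-positive cells), and Hpgds, the prostaglandin D2 synthase gene, differed by -0.52 (adjusted p = 0.0682).

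Several lists that touch ICOS signalling held few or no calls. Over all genes tested 2.18% passed, so such counts in lists of this size lie near that share and say little about the lists. Of 21 ICOS, PI3K and Foxo genes none passed, and 2 fell without 1 array of the wide pair; Pik3ip1, an inhibitor of PI3K, differed by -0.86 (adjusted p = 0.284, and 0.0052 without 1 array of the wide pair), Pik3cd by -0.82 and Foxo1 by -0.22. Of 18 immediate early genes of T cell receptor signalling Myc fell, with 9.97 and 9.76 in double-positive and 11.26 and 11.07 in CD103 single-positive cells (-1.30 ± 0.18, adjusted p = 0.00289). Nr4a1 (0.03) and Egr2 (-0.45) did not pass. None of 17 MAPK and calcineurin brakes passed (1 fell without 1 array of the wide pair), and of 18 TGF-beta pathway genes Smurf1, a ligase that targets Smad proteins, fell by 0.63. Myc was thus lower on the same arrays on which the mitosis genes were higher.

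Of 20 Treg core genes 0 rose and 1, Ecm1, fell (-1.07); Gpr83 (-2.17), Plagl1 (-2.37) and Lrrc32 (-1.60), which presents latent TGF-beta, were lower in value without passing, and Ikzf2 differed by 0.30. Ecm1 passed in 1 of the 4 fits without 1 compared array, and without 1 array of the wide pair 2 core genes rose and 3 fell. Follicular T cell genes gave Cd200 and Cxcr5 as lower and none higher of 14. The antiviral genes Oas1a (1.0) and Rsad2 (0.64) rose among 20 interferon response genes, and both passed in 0 of the 4 fits without 1 compared array. None of 13 glycolysis, 17 cholesterol synthesis or 16 heat shock and stress genes passed, and their median differences were 0.11, 0.16 and 0.03. Without 1 array of the wide pair 1 heat shock and stress gene, 1 follicular T cell gene and no glycolysis or cholesterol synthesis gene was higher.

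**Figure D3:**
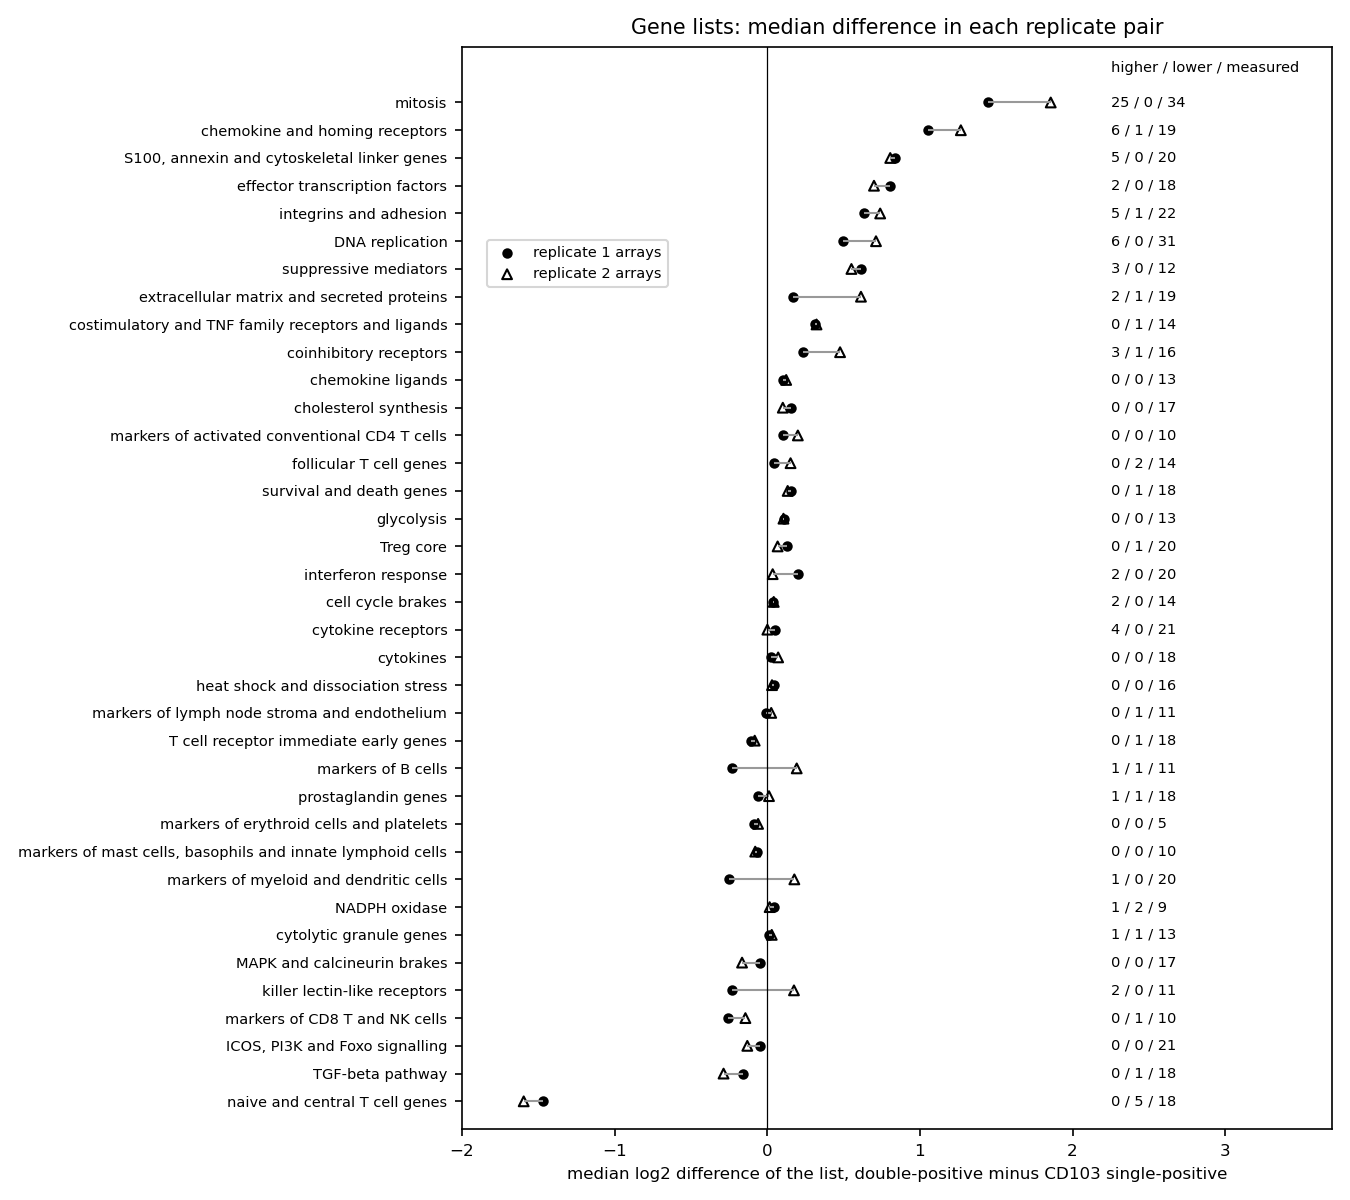
Median log2 difference (double-positive minus CD103 single-positive, x axis) of 37 gene lists (rows), computed from the replicate 1 arrays (filled circles) and the replicate 2 arrays (open triangles); the numbers give members that passed as higher, that passed as lower and that were measured. Mitosis lies furthest right (1.45 and 1.86) and naive and central T cell genes furthest left (-1.47 and -1.60), while the B cell and myeloid marker lists change sign between the replicates.

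The same ICOS difference could be read in CD103-negative cells, as fresh ICOS single-positive minus fresh double-negative, on arrays shared with none of the above. There 661 genes passed, 3.32%. The calls of both comparisons had 211 genes in common with the same sign, 48.5% of the 435 and 31.9% of the 661, and 2 with opposite sign. Of the 435 genes, 403 (92.6%) had the same sign in CD103-negative cells, against 66.7% of all genes. The 315 genes that rose had a median difference of 1.29 in CD103-positive and 1.12 in CD103-negative cells, and the 120 that fell had -1.13 and -0.52. Both comparisons share the estimate of the spread per gene, though no array.

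A test of the difference between both ICOS differences gave 9 genes, 0.0451%, with 989 at an unadjusted p below 0.05. Ptgdr2 differed by 2.46 in CD103-positive and 0.07 in CD103-negative cells (interaction 2.39, adjusted p = 0.0328), and Abi3bp by 2.24 and -0.56 (2.80, adjusted p = 0.012). Sdc1 (1.48), Kcnk1 (1.52) and Slc27a6 (1.19) had the same sign of interaction. Cybb was 1.64 log2 units lower with ICOS in CD103-positive cells and 1.41 higher in CD103-negative cells (-3.06, adjusted p = 0.0165), and Noxa1 (-1.60), Cd8a (-1.42) and Cacna1d (-1.54) also had negative interactions. The count was 0 without CD103 single-positive replicate 2, double-negative replicate 2 or either ICOS single-positive array, 2 without double-positive replicate 1, and 30 without 1 array of the wide pair, so it rests on single arrays.

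The large differences named above mostly had the same sign on both sides of CD103, and not all passed on both. In CD103-negative cells Gcnt1 and Ccna2 passed (limma, adjusted p = 0.00268 and 1.3e-06). Gzmb (adjusted p = 0.406), Havcr2 (2.70, adjusted p = 0.115), Il23r (2.36, adjusted p = 0.106), Cxcr6 (2.59, adjusted p = 0.0712) and Ccr3 (1.71, adjusted p = 0.176) did not pass there. Klrg1 differed by 4.54 in CD103-positive and 4.60 in CD103-negative cells, and Gcnt1 by 3.64 and 3.07. Gzmb differed by 5.18 and 2.04, and Pxdc1 by 3.98 and 1.16, and neither passed the test of the difference. The double-negative arrays read 8.97 and 5.21 for Gzmb, so its difference in CD103-negative cells was 3.92 without double-negative replicate 1 and 0.16 without replicate 2. For Pxdc1 it was 0.73 and 1.58 without ICOS single-positive replicates 1 and 2. Mitosis genes had medians of 1.65 in CD103-positive and 2.24 in CD103-negative cells, and DNA replication genes 0.60 and 1.39. All 31 DNA replication genes and 33 of 34 mitosis genes had a smaller ICOS difference in CD103-positive cells, and none passed the test of that difference singly. Over all genes 52.2% had a larger ICOS difference in CD103-positive cells. Genes of these lists moved together on the same arrays, so the counts are not independent observations. Il21, a follicular helper cytokine gene, differed by 0.28 in CD103-positive and 4.40 in CD103-negative cells (-4.13, adjusted p = 0.46), and the follicular list had medians of 0.14 and 0.76.

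**Figure D4:**
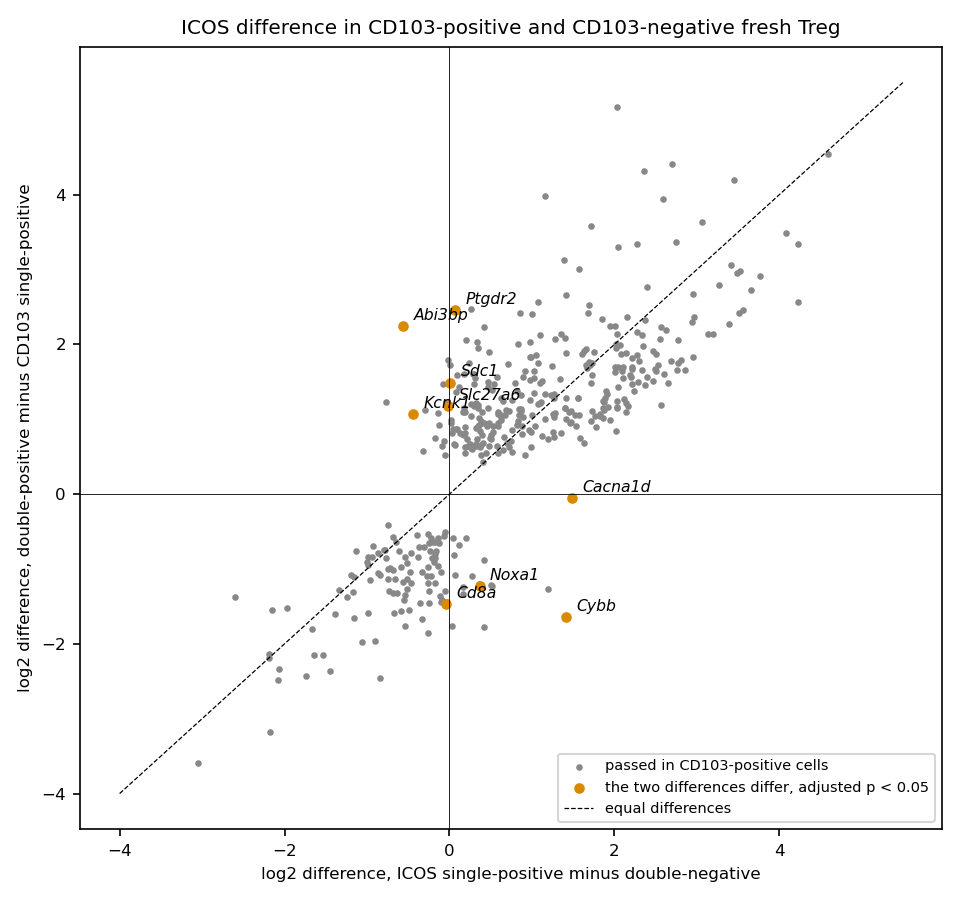
Log2 ICOS difference in fresh CD103-positive Treg (double-positive minus CD103 single-positive, y axis) against that in fresh CD103-negative Treg (ICOS single-positive minus double-negative, x axis), each point a gene; grey points are genes that passed in CD103-positive cells, orange points the 9 genes whose differences differ, and the dashed line marks equal differences. Most points lie in the quadrants of equal sign (403 of the 435 genes that passed), Ptgdr2 and Abi3bp lie above the line and Cybb lies far below it.

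After the suppression assay the ICOS difference of CD103-positive cells was read on activated double-positive minus activated CD103 single-positive arrays, also shared with none of the fresh ones. Icos itself read 12.91 and 12.87 in activated double-positive and 12.12 and 12.07 in activated CD103 single-positive cells. Its difference was 0.79 (limma, adjusted p = 0.436), against 1.89 in fresh cells, so the sort gene was less far apart here and did not pass. Itgae read 11.18 and 11.08 against 9.94 and 9.87 in activated CD103 single-positive cells (1.23, adjusted p = 0.638). In that comparison 28 genes passed, 0.14%, with 2349 at an unadjusted p below 0.05. Only 6 of the 435 genes passed with the same sign in both, 1.38% of the 435 and 21.4% of the 28, and 1 with opposite sign. The same sign was seen at 278 (63.9%) of the 435, against 52.6% of all genes. The median of the 315 genes that rose in fresh cells was 1.29 there and 0.13 in activated cells, and that of the 120 that fell was -1.13 and -0.28.

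Tested directly, the fresh and the activated ICOS differences differed at 153 genes, 0.767%, 126 with a larger value in fresh cells and 27 with a smaller one. The count was 61 without double-positive replicate 2, the lowest of any array left out, and 224 without 1 array of the wide pair. Of 34 mitosis genes 24 passed this test, with median differences of 1.65 in fresh and -0.28 in activated cells. Ccna2 differed by 3.49 in fresh and -0.06 in activated cells (3.55 apart, adjusted p = 0.000224) and Mki67 by 3.34 and -0.09 (3.43 apart, adjusted p = 0.000699). Ccna2 read 11.51 and 11.40 in activated double-positive and 11.51 and 11.52 in activated CD103 single-positive cells. For Ccnb2 these levels were 11.63 and 11.61 against 11.54 and 11.74. At both genes both activated groups lay above both fresh groups. Lgals1 differed by 1.76 and 0.18, Nox1 by 2.04 and 0.01, and Ptgdr2 by 2.46 and 0.08, and each passed the test. Klrg1 (4.54 in fresh and 3.47 in activated cells), Cxcr6 (3.94 and 3.54), S100a6 (4.19 and 2.71) and Il23r (4.32 and 2.70) had large values after activation too, without passing in activated cells, and their differences between states did not pass either.

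**Figure D5:**
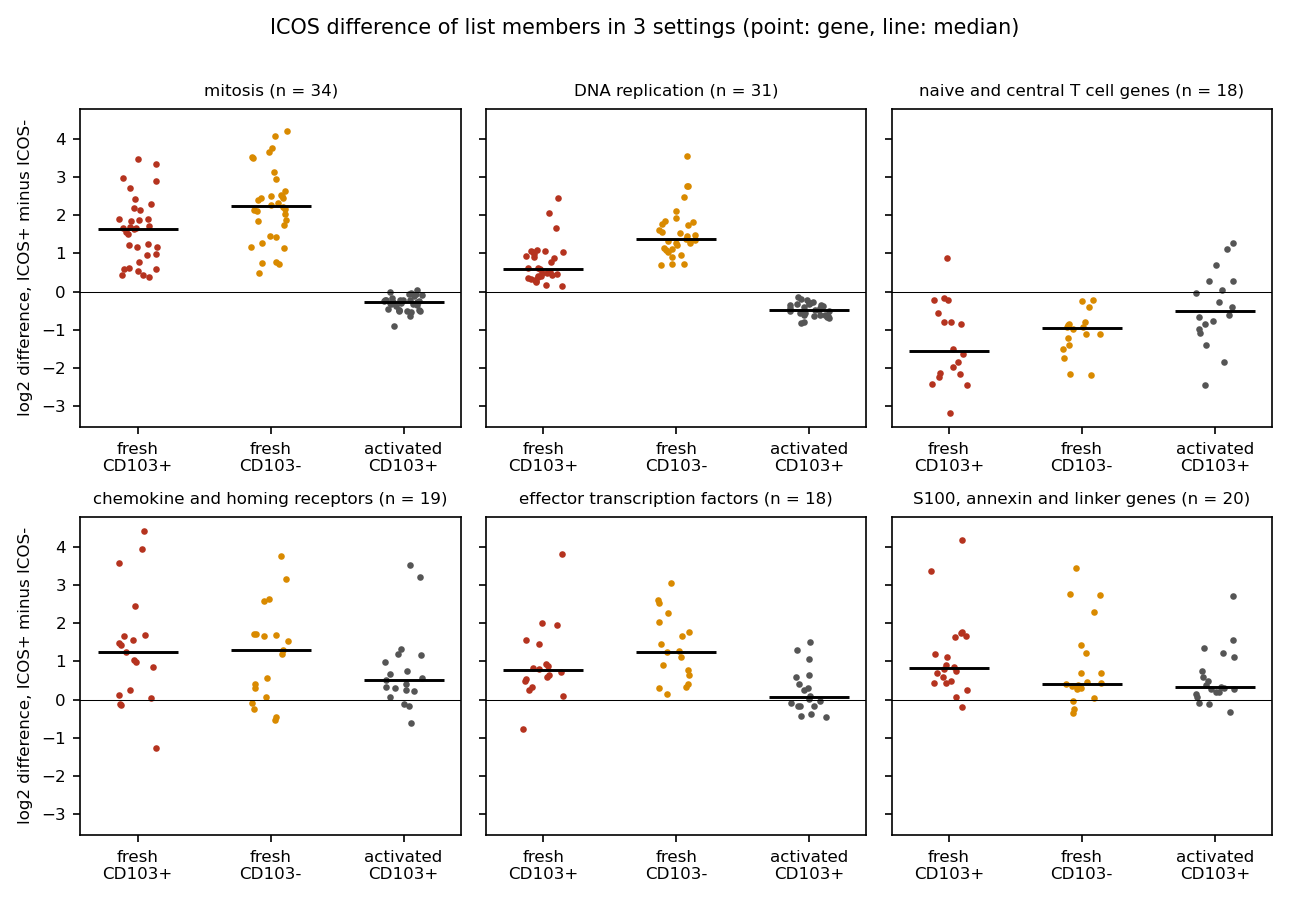
Log2 ICOS difference (y axis) of the members of 6 gene lists in fresh CD103-positive (red, double-positive minus CD103 single-positive), fresh CD103-negative (orange, ICOS single-positive minus double-negative) and activated CD103-positive cells (grey, activated double-positive minus activated CD103 single-positive); points are genes and lines medians. Mitosis genes lie above 0 in both fresh settings (medians 1.65 and 2.24) and near or below 0 in activated cells (-0.28), and naive and central T cell genes have medians of -1.56, -0.96 and -0.51.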

How the data were processed

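Fresh double-positive and CD103 single-positive Treg (2 arrays each) were compared within a series of 16 Affymetrix arrays. The deposited values are log2 intensities per probe set, which the authors made with RMA and the affy package, per the submitters' processing notes (version and settings not given in the sources used here). Values ran from 3.02 to 14.24. Of 35556 probe sets, 21789 are annotated with 1 gene symbol, 1621 with several and 12146 with none. One-symbol probe sets were used, the brightest over all arrays per gene (19938 genes), with no further normalization or filter. Arrays carry no depth, and their number limits the precision.

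limma 3.58.1 in R 4.3.3 was fitted to all 16 arrays with 8 group means (8 residual and 2.90 prior degrees of freedom) and tested on simulated data. The 12 largest passing differences in each direction with equal sign in both replicates are named, leaving out predicted, small RNA, histone and antigen receptor genes. Also named are up to 4 passing members per list and direction, up to 8 genes per sign of each test between differences, 67 fixed genes, and further list members with their values. Of 611 genes in 37 lists 570 were measured, and the other 41 were not analysed here. Members and lists were chosen with earlier results of these data known. Alternatives changed the arrays in the fit, the replicate block, scaling, dim genes, probe set summary, the variance model and the threshold. Figures used matplotlib 3.10.9 in Python 3.11.15.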

Additional observations from a re-analysis of the deposited data

Results flagged for a closer look

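The ICOS difference differed with CD103 at 9 genes, by a test of the difference between both differences (limma, 19938 genes). The log2 difference in CD103-positive cells exceeded that in CD103-negative cells by 2.80 for Abi3bp, 2.39 for Ptgdr2, 1.52 for Kcnk1, 1.48 for Sdc1 and 1.19 for the fatty acid transport gene Slc27a6. It was below it by -3.06 for Cybb, -1.60 for Noxa1, -1.54 for the calcium channel gene Cacna1d and -1.42 for Cd8a.

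Between fresh and activated CD103-positive cells the ICOS difference differed at 153 genes by the same kind of test. Among cell division genes the fresh difference exceeded the activated one by 3.55 for Ccna2, 3.43 for Mki67, 3.20 for Bub1, 3.13 for Kif11, 3.00 for Ccnb2, 2.85 for Knl1, 2.80 for Ncapg, 2.76 for Rrm2, 2.72 for Top2a, 2.60 for Ccne2, 2.23 for Uhrf1 and 1.39 for Rrm1. Outside cell division it did so by 2.38 for Ptgdr2, 2.06 for Abi3bp, 2.02 for Nox1, 1.75 for Blk, 1.58 for Lgals1, 1.43 for Sdc1, 1.36 for Anxa1 and 1.10 for Slc27a6.

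The fresh difference was below the activated one for Lum (-3.86), Evl (-2.48), Smpdl3a (-2.12), Gsta4 (-2.05), Cxcr5 (-2.01), Gucy1a1 (-1.98), Khdc1a (-1.96), Dtx4 (-1.95), Cd8a (-1.19) and Noxa1 (-1.09). Lum, a matrix proteoglycan gene, read 3.99 and 4.01 in fresh double-positive and 4.03 and 4.13 in fresh CD103 single-positive cells, so its value comes from the activated arrays, where the difference was 3.79. For Smpdl3a, too, the activated cells held the difference (2.24 there and 0.12 in fresh cells).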

How the results depend on the processing

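All 82 named genes that passed kept their sign in the alternatives run for them (25 or 26 per gene), and the counts moved. The alternatives reuse the arrays by which these genes were chosen, so the kept sign adds no separate evidence. Leaving out 1 of the 16 arrays gave 137 to 499 higher, 36 to 205 lower and 176 to 704 genes in all. The same gave 0 to 30 genes for the CD103 interaction and 61 to 224 for fresh against activated cells. The 8 fresh arrays alone gave 578 higher, 283 lower and 861 in all, with 62 for the CD103 interaction. Adjusted p below 0.01 gave 146, 45 and 191, with 0 and 45 for both interactions. The CD103 interaction had 17 genes with probe sets averaged and 28 with a trended, robust variance. Re-scaled arrays, removal of dim genes and the fit to the 4 compared arrays (404) stayed within 1.5 times in count. The genes changed more than the count in the fit to the 4 compared arrays, where 253 of the 404 were among the 435 of the main fit.

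The labels do not say that a replicate number marks an experiment, though deviations of same-numbered arrays correlated at 0.75 between the compared groups, and 27 of 28 pairs of groups lay above 0.1. With the replicate block 513 genes were higher, 266 lower and 779 in all, with 71 and 277 for the interactions. On the fresh arrays alone the block gave 1559, 1249 and 2808, and 1124 for the CD103 interaction. With the block and without replicate 2 of the activated ICOS single-positive group, an alternative chosen after seeing the data, there were 815, 460 and 1275, with 194 and 466. With the block over 16 arrays, 6 genes named as not passing had an adjusted p below the threshold (limma): Ahr (0.000397), Gata3 (0.0162), Satb1 (0.0245), Bach2 (0.033), Tigit (0.0339) and Hpgds (0.0396). The causes were not tested. With 2 arrays per group, differences that missed the threshold are not shown to be absent.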
